A study of Mus musculus with 14 samples.

Results

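The regions described here are sites in the mouse genome that gained chromatin accessibility after cycloheximide and lie outside genes. A gained region was taken when its centre fell within no gene span of RefSeq's GRCm38 annotation, with genes of all kinds counted, from protein-coding genes to pseudogenes and small RNA genes. Of 734 gained regions, 475 (64.7%) met this rule, and the centres of the other 259 lay inside genes. The authors' lists hold 1188 regions in all, 734 gained and 454 lost, and 218 of the lost regions lay outside genes by the same rule. Membership rests on the authors' call of a gain and on gene positions, so the gain itself, the number outside genes and the regions' own distances to genes are given as description, without a test. Tests are confined to comparisons with lost regions chosen by the same rule on gene positions, to comparisons by width, and to the share of narrow regions outside and inside genes. Each position and width below comes from the authors' deposited table of gained regions.

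The study used E14, a line of embryonic stem cells of the mouse, grown in 15% fetal bovine serum with 2000 U/ml LIF, the cytokine that keeps such cells undifferentiated. In the treated group the cells received 1 µg/ml cycloheximide for 3 hours, and in the control group DMSO for 3 hours. ATAC-seq was made in 4 libraries of each group, and the lists compare these groups. The series also holds 4 H4K16ac ChIP-seq libraries and 2 input libraries, which were not analysed here. All libraries come from 1 cell line, and nothing in the labels says whether they came from separate cultures. The lists hold positions alone, with no signal for a library or a region, so the size of a gain and its spread between libraries are not given here, and the identity of the cells could not be checked against marker genes.

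ATAC-seq uses a transposase that inserts sequencing adapters into DNA not covered by nucleosomes, and so marks promoters, enhancers and other open sites. Cycloheximide blocks elongation by the ribosome, so that proteins with a short life are depleted within hours. Long stretches without protein-coding genes, called gene deserts, often flank genes that act in development and in the nervous system, among them protocadherins and other cell adhesion genes, and some hold enhancers that act over long distances. Families of tandem genes, such as olfactory and vomeronasal receptor genes, form clusters with short gaps between the genes.

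Some of the regions lay at promoters. RefSeq's table of promoters for GRCm38.p6 gives, for each start site, the 250 bases before it and the 50 bases after it. It covers 466 of the 475 regions by chromosome, and 5 of these overlapped 8 promoter windows. The windows of both genes at 2 regions of the histone cluster on chromosome 3 are printed first, since these regions contain whole histone genes, followed by 3 windows that surround the centres closest to a gene. All are 5′ to 3′ on the strand of the gene, in lower case, with matches to a motif in capitals on either strand. The motifs marked are the GC box, spelled GGGCGG, which reads CCGCCC on the other strand; CCAAT, which reads ATTGG on the other strand; the octamer ATGCAAAT, which reads ATTTGCAT on the other strand; and the TATA motif, spelled TATAAA.
H3c15, chr3:96239078-96239377, minus strand: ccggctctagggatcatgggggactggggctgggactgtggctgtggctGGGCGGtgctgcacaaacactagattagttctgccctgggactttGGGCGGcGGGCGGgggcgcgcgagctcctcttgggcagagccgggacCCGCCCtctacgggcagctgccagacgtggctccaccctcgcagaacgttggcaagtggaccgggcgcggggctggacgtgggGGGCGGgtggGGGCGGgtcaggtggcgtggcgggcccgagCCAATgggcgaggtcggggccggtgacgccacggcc
H2ac19, chr3:96240325-96240624, minus strand: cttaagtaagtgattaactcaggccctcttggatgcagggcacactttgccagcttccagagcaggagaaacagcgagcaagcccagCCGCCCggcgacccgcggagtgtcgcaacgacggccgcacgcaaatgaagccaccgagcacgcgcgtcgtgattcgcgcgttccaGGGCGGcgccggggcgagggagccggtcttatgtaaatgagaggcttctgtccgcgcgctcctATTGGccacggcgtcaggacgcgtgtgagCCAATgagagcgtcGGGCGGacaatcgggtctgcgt
H3c13, chr3:96268404-96268703, plus strand: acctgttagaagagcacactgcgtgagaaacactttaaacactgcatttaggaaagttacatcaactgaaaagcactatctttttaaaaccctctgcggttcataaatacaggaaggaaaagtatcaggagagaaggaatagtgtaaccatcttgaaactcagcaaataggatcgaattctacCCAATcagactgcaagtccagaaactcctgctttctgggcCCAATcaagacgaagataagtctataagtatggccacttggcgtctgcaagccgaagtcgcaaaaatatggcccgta
H2bc18, chr3:96269450-96269749, plus strand: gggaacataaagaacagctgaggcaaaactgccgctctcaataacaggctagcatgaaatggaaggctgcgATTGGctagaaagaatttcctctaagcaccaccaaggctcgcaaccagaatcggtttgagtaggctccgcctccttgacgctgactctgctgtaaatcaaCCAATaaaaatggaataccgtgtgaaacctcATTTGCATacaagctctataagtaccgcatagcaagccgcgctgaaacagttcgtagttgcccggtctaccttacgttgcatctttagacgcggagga
Zfp3, chr11:70764197-70764496, plus strand: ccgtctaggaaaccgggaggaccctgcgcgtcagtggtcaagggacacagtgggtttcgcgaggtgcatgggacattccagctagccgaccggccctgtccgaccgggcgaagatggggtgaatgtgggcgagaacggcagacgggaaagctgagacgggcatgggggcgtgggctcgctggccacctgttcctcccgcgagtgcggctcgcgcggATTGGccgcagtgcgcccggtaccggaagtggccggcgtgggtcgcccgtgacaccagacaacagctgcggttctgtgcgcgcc
Dynll1, chr5:115300941-115301240, minus strand: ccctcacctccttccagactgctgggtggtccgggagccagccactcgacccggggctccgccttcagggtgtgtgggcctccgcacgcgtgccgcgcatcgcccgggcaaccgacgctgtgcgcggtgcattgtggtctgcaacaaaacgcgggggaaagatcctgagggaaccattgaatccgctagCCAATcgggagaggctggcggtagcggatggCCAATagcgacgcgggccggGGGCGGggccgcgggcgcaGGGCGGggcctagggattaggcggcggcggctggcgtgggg
2410002F23Rik, chr7:44246472-44246771, plus strand: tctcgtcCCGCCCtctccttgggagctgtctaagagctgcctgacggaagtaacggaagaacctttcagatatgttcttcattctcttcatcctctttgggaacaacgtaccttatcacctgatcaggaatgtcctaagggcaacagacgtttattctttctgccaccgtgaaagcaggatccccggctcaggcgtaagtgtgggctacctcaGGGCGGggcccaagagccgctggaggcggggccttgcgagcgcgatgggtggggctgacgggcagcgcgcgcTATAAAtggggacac

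The CCAAT box, bound by the factor NF-Y, was present in 7 of the 8 windows, against 37.4% of the 32851 promoter windows in the table. The GC box, bound by SP1 and its relatives, was present in 5 of the 8, against 35.7% of all windows. The H3c15 window held 6 GC boxes, the most of the 8. The octamer, a known element of H2B promoters, was present in the H2bc18 window alone, against 1.74% of all windows. The exact string TATAAA was present in the window of 2410002F23Rik alone, against 13.6% of all windows. In that window it lies near the 3′ end, after the start site. The windows of H2bc18 and H3c13 hold the related string TATAAG before the start site, which the exact search does not count. The search therefore cannot decide which of the 8 promoters have a TATA box. The windows of H3c15, H2bc18, Dynll1, Gm13830 and 2410002F23Rik lie wholly inside a region, while 210 of the 300 bases of the H2ac19 window, 190 of the Zfp3 window and 169 of the H3c13 window do. The 8 windows hold the overlapping windows of Dynll1 and the non-coding gene Gm13830, which share bases, and they are too few to compare with other promoters. Other motifs searched were AP-1 (TGANTCA), CRE (TGACGTCA), E-box (CACGTG), SOX (ACAATGG), NRF1 and CTCF, and none was found in the 8 windows. These letters occur in 7.81%, 1.79%, 7.15%, 3.66%, 0.971% and 0.0122% of all windows, in that order. The GC content was 72.7% in the H3c15 window, 63.7% in that of H2ac19, 48.0% in that of H2bc18 and 42.0% in that of H3c13, against a median of 52.7% (quartiles 45.7% and 61.7%) over all windows.

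The histone regions form the densest 100 kb of the gained list outside genes, with 4 regions on chromosome 3. The first, chr3:96238332-96240534, spans 2203 bp and contains all of H3c15 and H2ac19, which encode histones H3 and H2A. The second, chr3:96262213-96263538, spans 1326 bp and contains all of H4c14, a histone H4 gene. The third, chr3:96268535-96270320, spans 1786 bp and contains all of H3c13 and H2bc18, which encode histones H3 and H2B. The centres of these 3 regions lay between the genes they contain or just beside them, at 306, 59 and 272 bp from a gene, which is why the rule counts them as outside genes. The fourth region, chr3:96312759-96313223, lay 9083 bp from the asparagine tRNA gene n-TNgtt4. Histone genes occur in near-identical copies. Of the 265 stretches of 36 bases in the H3c15 window, 214 recur in the window of H3c14, and 184 of the 265 in the H2ac19 window recur in that of H2ac18. For the Zfp3, Dynll1, H3c13 and H2bc18 windows this number was 0. How reads were placed among such copies is not given in the sources used here, so the regions at H3c15 and H2ac19 are uncertain as to which copy they mark.

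Few of the other regions were at promoters. The promoter windows of the 27025 genes in that table, which are not all genes counted here, were touched by 5 gained regions outside genes, 3 lost regions outside genes and 26 gained regions inside genes. Of the 475 centres 12 (2.53%) lay within 1 kb of a gene, against 4.42% of the sequence between genes and 10 of 218 lost regions (4.59%). The region bodies of 7 (1.47%) touched a gene, as did those of 6 lost regions (2.75%). The closest centre lay 8 bp from Zfp3, a zinc finger gene, in chr11:70764307-70764571. It was followed by 28 bp from 2410002F23Rik, a gene known by its clone name (chr7:44246369-44246998), 41 bp from Dynll1, a dynein light chain gene (chr5:115300622-115301441), 59 bp from H4c14 and 61 bp from the long non-coding RNA gene Gm34486 (chr10:71565302-71565553). On the other side of the rule's limit, the gained regions whose centres lay just inside a gene were 11 bp within Gm30397 (chr8:44747355-44747623), 19 bp within the linker histone gene H1f4 (chr13:23620932-23622658), 61 bp within Rnf227, 63 bp within Trim17 (chr11:58954270-58955196) and 68 bp within Gm27211. Histone genes thus appear on both sides of the limit, and the limit divides regions at closely similar distances from a gene boundary.

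The distances to genes varied widely. The median distance from a region's centre to the nearest gene of any kind was 29849 bp (binomial 95% interval of the median 25221 to 35661, n = 475), with quartiles of 11130 and 69598 bp and a maximum of 554959 bp. To the nearest protein-coding gene the median was 113335 bp, with quartiles of 30985 and 330722 bp. The lost regions outside genes lay closer, with medians of 12573 bp to any gene and 41313 bp to a protein-coding gene (n = 218). The sequence between genes, 1457 Mb in 35940 gaps, gives a scale for these distances: over all its bases the median was 24651 bp to any gene and 93100 bp to a protein-coding gene. That sequence includes assembly gaps and repeats where reads cannot be placed, so it serves as a description and not as an expectation.

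**Figure D1:**
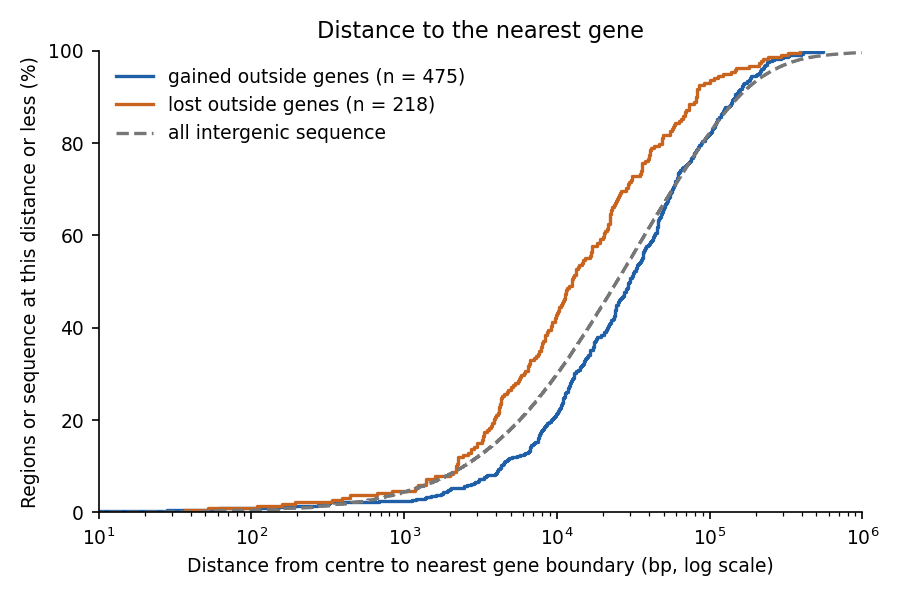
Percent of gained regions outside genes (n = 475), of lost regions outside genes (n = 218) and of all sequence between genes that lies at or below each distance from the nearest gene of any kind (log axis, bp). The curve of the gained regions runs to the right of that of the lost regions, with medians of 29849 and 12573 bp.

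The nearest gene was often no protein-coding gene. It was protein-coding for 143 regions (30.1%), a pseudogene for 179 (37.7%), a long non-coding RNA gene for 107 (22.5%) and a small RNA gene for 45 (9.47%). Among lost regions outside genes the nearest gene was protein-coding for 39.9%, a pseudogene for 23.9% and a long non-coding RNA gene for 28.4%. A count of 101 regions (21.3%, Wilson 95% interval 17.8 to 25.2) lay within 10 kb of a gene, a zone that makes up 29.9% of the sequence between genes and that held 93 of 218 lost regions (42.7%). At the far end, 86 regions (18.1%, 14.9 to 21.8) lay over 100 kb from any gene, against 17.7% of the sequence. Over 1 Mb from a protein-coding gene lay 27 regions (5.68%) and a like share of lost regions, 12 of 218 (5.50%).

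The region farthest from any gene was chr18:18538322-18538722, at 554959 bp from a small nucleolar RNA gene, in the gap between Cdh2, the neural cadherin gene, and Dsc3, a desmosomal cadherin gene. The region chr14:82528744-82528876 lay 406584 bp from any gene, and was the farthest from a protein-coding gene, at 1914753 bp from Pcdh17, a protocadherin gene. The regions chr2:81644655-81644974 and chr2:81311712-81312548 lay in the same gap between Nup35, a nuclear pore gene, and the zinc finger gene Zfp804a, at 405315 and 327941 bp from any gene. The region chr16:82962134-82962356 lay 396062 bp from a pseudogene and 1337955 bp from Ncam2, a neural cell adhesion gene. Next after the Pcdh17 region in distance from protein-coding genes were chr5:55899339-55899568, at 1778396 bp from the calcium sensor gene Stim2, chr3:43557007-43558568, at 1754480 bp from D3Ertd751e, chr1:48673364-48673569, at 1747690 bp from the zinc transporter gene Slc39a10, and chr14:91279627-91280177, at 1733798 bp from Pcdh9. Of these remote regions 1 is wide, that near D3Ertd751e with 1562 bp, while the others span 133 to 837 bp.

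With a gene desert defined as a gap of 500 kb or more between neighbouring protein-coding genes, 260 of the 475 regions (54.7%, Wilson 95% interval 50.2 to 59.2) lay in deserts, which hold 50.0% of the sequence between genes. In gaps of 1000 kb or more lay 188 regions (39.6%, 35.3 to 44.0), against 32.7% of the sequence. Deserts defined by genes of all kinds are fewer, and 56 regions (11.8%) lay in such gaps of 500 kb or more, against 12.6% of the sequence. The sequence's share thus lies just below the interval of the regions' share at 500 kb and further below it at 1000 kb, while by genes of all kinds the regions' share is the lower one.

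Set against the lost regions outside genes, which meet the same condition, the gained regions were more often in deserts. The shares were 54.7% (260 of 475) and 39.9% (87 of 218), a difference of 14.8 percentage points (95% interval 6.82 to 22.5; odds ratio 1.82; p = 3.15e-04 by a two-sided Fisher's exact test, adjusted p = 7.88e-04 over 5 comparisons of the lists). The share over 100 kb from any gene was 18.1% against 6.88% (15 of 218), a difference of 11.2 points (5.97 to 15.8; odds ratio 2.99; p = 6.74e-05 by the exact test, adjusted p = 3.37e-04). With the limit at 200 kb the difference was 2.05 points (25 of 475 against 7 of 218, exact test, adjusted p = 0.412). On chromosome X lay 34 gained regions (7.16%) and 4 lost regions (1.83%), a difference of 5.32 points (1.90 to 8.23; odds ratio 4.12; p = 0.00350 by the exact test, adjusted p = 0.00584). Regions over 1000 bp wide were 48 of 475 (10.1%) and 9 of 218 (4.13%), a difference of 5.98 points (1.71 to 9.58; odds ratio 2.61; p = 0.00710 by the exact test, adjusted p = 0.00887). The share with another region of the same list within 10 kb was 7.58% (36 of 475) and 7.80% (17 of 218), a difference of -0.219 points with an interval of -5.02 to 3.75 (p = 1.00 by the exact test, adjusted p = 1.00). With rows within 50 bp joined and regions under 100 bp left out, it was -5.17 points (12 of 456 against 17 of 218, exact test, adjusted p = 0.00459). These tests count regions, which are no replicates of the treatment, and neighbouring regions share their surroundings. With 1 region counted per gap between protein-coding genes, the desert difference was 12.1 points (Fisher's exact test, adjusted p = 0.00888) and the difference beyond 100 kb was 8.37 points (adjusted p = 0.00828).

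**Figure D2:**
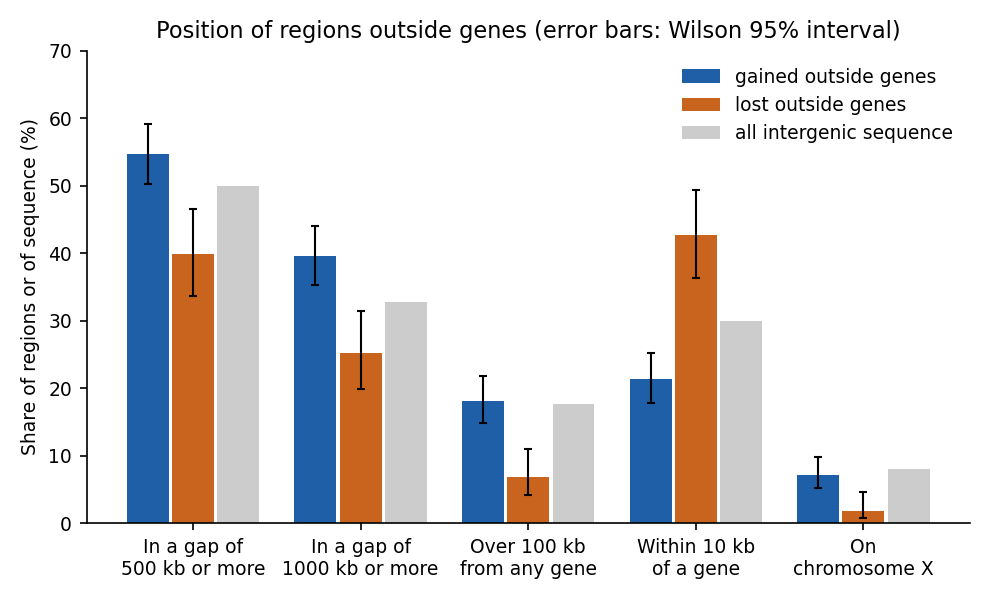
Percent of gained and of lost regions outside genes (bars, with Wilson 95% intervals as error bars) and of all sequence between genes (grey bars) in each class of position. The gained regions stand above the lost regions for gaps of 500 kb or more (54.7% against 39.9%) and for distances over 100 kb (18.1% against 6.88%), and below them within 10 kb of a gene (21.3% against 42.7%).

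Each deposited list is written as 2 runs sorted by position, with 115 of the gained regions outside genes in the first run and 360 in the second. What divides the runs is not given in the sources used here. In the first run alone the desert difference from the lost list was 18.1 points (65 of 115 against 20 of 52; p = 0.0444 by the exact test, adjusted p = 0.0555), and in the second 13.8 points (195 of 360 against 67 of 166; adjusted p = 0.00604). The difference beyond 100 kb was 9.70 points in the first run (Fisher's exact test, adjusted p = 0.189) and 11.7 points in the second (adjusted p = 7.88e-04). The difference on chromosome X was 0.686 points in the first run, where 3 gained and 1 lost region lay on X, and 6.80 points in the second. The excess of regions over 1000 bp was found in the second run alone, at 8.61 points (Fisher's exact test, adjusted p = 0.00204), and was -2.29 points in the first (adjusted p = 0.848). Whether the runs differ from each other in these shares was not tested.

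The 260 regions in deserts were spread over 179 of the 711 deserts. A single region lay in each of 126 deserts, 2 in each of 37, and 3 or more in each of 16, which together held 60 regions. The fullest was the 4542 kb gap between Pcdh20 and Pcdh9 on chromosome 14, with 7 gained regions and 0 lost regions. Both genes encode protocadherins, cadherin-related adhesion proteins expressed in the nervous system. Its 7 regions lay 383.4, 568.3, 1113, 1429, 2809, 4379 and 4450 kb from Pcdh20, so they spanned nearly the whole gap, and their widths ran from 261 to 551 bp. The first is chr14:88854690-88854950 and the last chr14:92920767-92921219, the latter 92707 bp from Pcdh9.

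The deserts with 5 gained regions were 3. The 3975 kb gap between Slc39a10 and Tmeff2, a transmembrane protein gene, on chromosome 1 held regions at 53.2, 1402, 1748, 2685 and 3234 kb from Slc39a10, and 0 lost regions. On chromosome 5 the 3676 kb gap between Pcdh7 and G6pd2, a glucose-6-phosphate dehydrogenase gene, held regions at 746.4, 1590, 2058, 2716 and 2898 kb from Pcdh7, and 1 lost region. On chromosome 3 the 3575 kb gap between D3Ertd751e and Pcdh10 held regions at 1754, 2660, 2863, 2957 and 3294 kb from D3Ertd751e, and 0 lost regions. All but the first of these 5 lay nearer to Pcdh10 than to D3Ertd751e. On its other side Pcdh7 is flanked by a second desert, the 3595 kb gap from Stim2, with 4 gained and 2 lost regions. One of these 4, chr5:54938264-54938268, is 5 bp wide, the narrowest of the 475, and ends 28 bp before its neighbour chr5:54938297-54938552, so the pair counts as 2 regions here. The 2122 kb gap between Epha6, an ephrin receptor gene, and Nsun3 on chromosome 16 held the other 4, with 1 lost region.

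Of the 10 deserts with 3 gained regions each, those described here were bounded by Cntnap5b and Cdh20 (4278 kb), Igfbp7 and Adgrl3 (3611 kb), Diaph2 and Pcdh19 on X (3117 kb), Otol1 and Sis (2860 kb), Lrfn5 and Fscb (2613 kb), Nectin3 and Gm52257 (1559 kb), Nup35 and Zfp804a (1390 kb), Gm33989 and Vstm2b (1317 kb), and Pdcd1 and Fam174a (1261 kb). Cdh20 and Pcdh19 belong to the cadherin and protocadherin family, and Adgrl3, a latrophilin gene, to the list of adhesion and synapse genes. A pair in the Otol1 desert, chr3:70052398-70052618 and chr3:70052620-70052839, and a pair in the Vstm2b desert, chr7:40337005-40337336 and chr7:40337339-40337513, lie end to end. In all, 23 of the 475 regions (4.84%) had another gained region within 50 bp.

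**Figure D3:**
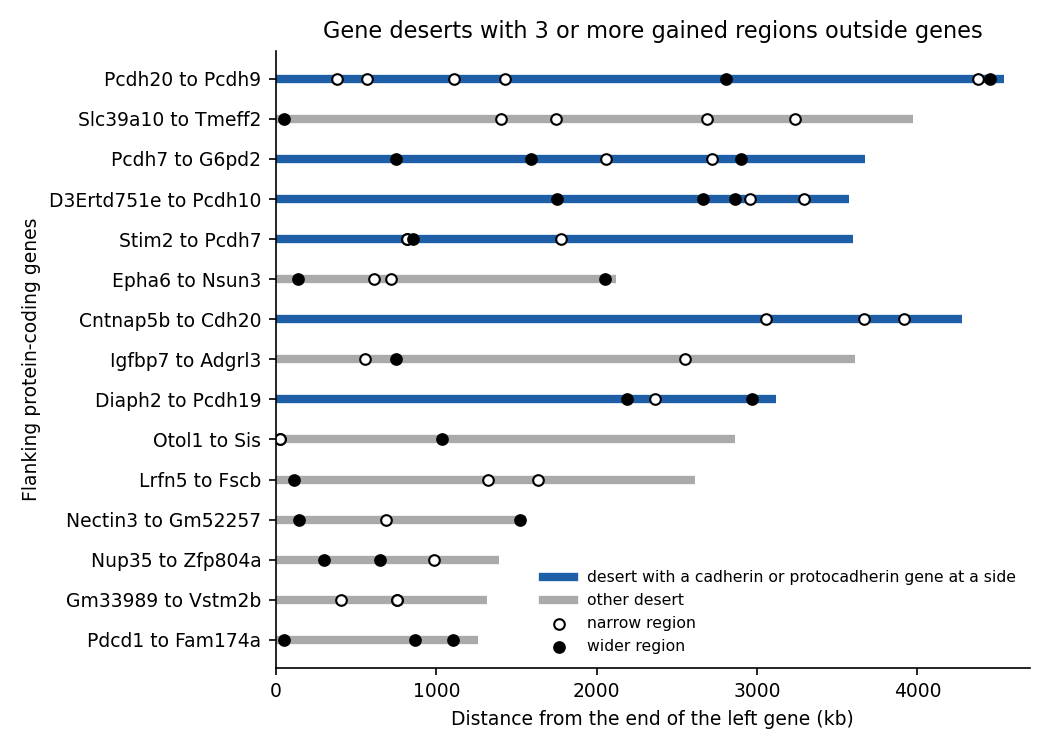
Gained regions in 15 of the 16 deserts that hold 3 or more of them, as distance in kb from the protein-coding gene on the left, with the bars drawn to the length of the desert, blue where a cadherin or protocadherin gene bounds it and grey otherwise. Open points are narrow regions and filled points wider ones, and the Pcdh20 to Pcdh9 gap holds the most, 7 regions over 4542 kb.

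Cadherin and protocadherin genes bounded 6 of the 16 fullest deserts. Over all deserts, 28 of 711 were bounded by such a gene, 65.0 of 819.0 Mb of desert length (7.93%). This length is that of whole gaps between protein-coding genes, with the non-coding genes in them included, where no member can lie. Of these 28, 17 held 43 gained regions, which is 16.5% of the 260 regions in deserts, and 31 of the 43 were beside a protocadherin gene. The density was 0.662 regions per Mb of that length in these deserts against 0.317 per Mb over all deserts. Of the 87 lost regions in deserts 11 lay in them too, a share that is also above 7.93%. With shorter gaps added, 45 gained regions (9.47%, Wilson 95% interval 7.16 to 12.4) had a cadherin or protocadherin as a neighbouring protein-coding gene on either side, against 4.36% of the sequence between genes and 11 of 218 lost regions (5.05%). The family was defined by gene symbol and chosen with earlier results of these data known, so these counts carry no test. Of the 17 genes, Pcdh7 had 9 regions, Pcdh10 had 7, Pcdh20 and Pcdh9 had 4 each as the nearer such gene, and Cdh20 and Pcdh19 had 3 each. The regions lay 64.3 to 3084 kb from the gene, with a median of 915.1 kb. When pseudogenes and non-coding genes count as neighbours too, 4 regions remained beside a cadherin or protocadherin gene, since other annotated genes lie between. Of a list of 33 other adhesion and synapse genes, 13 had 20 regions as neighbours (4.21%), beside 4.22% of the sequence and 11 lost regions (5.05%). Among them were Adgrl3 with 3 regions, and the contactin Cntn5 and the receptor phosphatase Ptprd with 2 each.

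Olfactory receptor genes, which encode the odorant receptors of the nose, were, apart from predicted genes with Gm symbols, the family most often directly beside a region. An olfactory receptor gene or pseudogene flanked 24 regions (5.05%, Wilson 95% interval 3.42 to 7.41), against 1.99% of the sequence between genes and 4 of 218 lost regions (1.83%). Rows within 50 bp of another, 23 of all 475 gained and 0 of the 218 lost, were not joined for the family counts. For 19 of the 24 both neighbours were of the family, so these regions lay inside receptor clusters. The region closest to such a gene was chr10:129042399-129042874, 3496 bp from Olfr765, followed by chr9:39042358-39042827, 4022 bp from Olfr936, and chr2:89876453-89876998, 4103 bp from Olfr1257. Vomeronasal receptor genes, which encode pheromone receptors, flanked 11 regions (2.32%, 1.30 to 4.10), against 1.67% of the sequence and 1 lost region. The closest of these, chr6:58464578-58465337, lay 7010 bp from Vmn1r31. Both families consist of many similar copies, and the placement of reads among copies is not given in the sources used here.

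Zinc finger genes of the Zfp series flanked 7 regions (1.47%, against 0.820% of the sequence) and 3 lost regions (1.38%), with Zfp3 the closest. They were protein-coding neighbours of 10 regions (2.11%, against 2.14% of the sequence) and 9 lost regions (4.13%). Histone genes flanked the 3 regions described above (0.632%, against 0.0335% of the sequence), and 0 of the 218 lost regions outside genes. Predicted genes with Gm symbols flanked 398 regions (83.8%, against 80.1% of the sequence). Ribosomal protein genes, counted with their pseudogenes, flanked 7 regions (1.47%, against 1.62%). Uridine glucuronosyltransferase genes (Ugt) flanked 2 regions (0.421%, against 0.0467%), at Ugt2b34 and Ugt3a2. Solute carrier genes flanked 2 regions (0.421%, against 0.908%), at Slc9a9 and Slc39a10, and were protein-coding neighbours of 20 (4.21%, against 2.91%). Of the 25 families and lists other than predicted genes, 12 flanked 0 regions, among them the Mage (0.126% of the sequence), serpin (0.134%), defensin (0.139%), keratin (0.122%) and Prame genes (0.132%). These shares of the sequence are too small for a count of 0 to set such a family apart.

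The pluripotency factors listed here, most of them transcription factors, keep or mark the state of embryonic stem cells. They were seldom neighbours of these regions, as of the sequence between genes. None of the 475 regions had a gene of the list of 22 as its direct neighbour (upper Wilson 95% bound 0.802%, against 0.0913% of the sequence), while 4 of the 218 lost regions did. Counting protein-coding neighbours, 2 gained regions (0.421%, against 0.440% of the sequence) had one, at 118.9 kb from Klf4 (chr4:55650911-55651825) and at 314.8 kb from Nr5a2 (chr1:137275127-137275278), and 6 lost regions. Genes of the 2-cell stage, which mark a rare early-embryo-like state in these cultures, were direct neighbours of 1 region (0.211%, against 0.0693% of the sequence) and protein-coding neighbours of 3 (0.632%, against 0.183%). These 3 lay at 47.3 kb from Tdpoz4 (chr3:93749034-93749215) and at 101.7 and 751.7 kb from Zfp352 (chr4:90116766-90117463 and chr4:90976907-90977945), and 0 lost regions had such a neighbour.

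By chromosome, the density of gained regions was 0.517 per Mb of sequence between genes on chromosome 3 (49 regions), 0.477 on chromosome 16 (25) and 0.434 on chromosome 1 (45). It was 0.177 per Mb on chromosome 11 (10 regions), 0.193 on chromosome 18 (9), 0.205 on chromosome 13 (13) and 0.0343 on Y (3). On chromosome X the density was 0.291 per Mb (34 regions), and X held 7.16% of the regions against 8.02% of the sequence. The higher share of gained than lost regions on X stands beside a gained share near that of the sequence and a lost share of 1.83%.

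**Figure D4:**
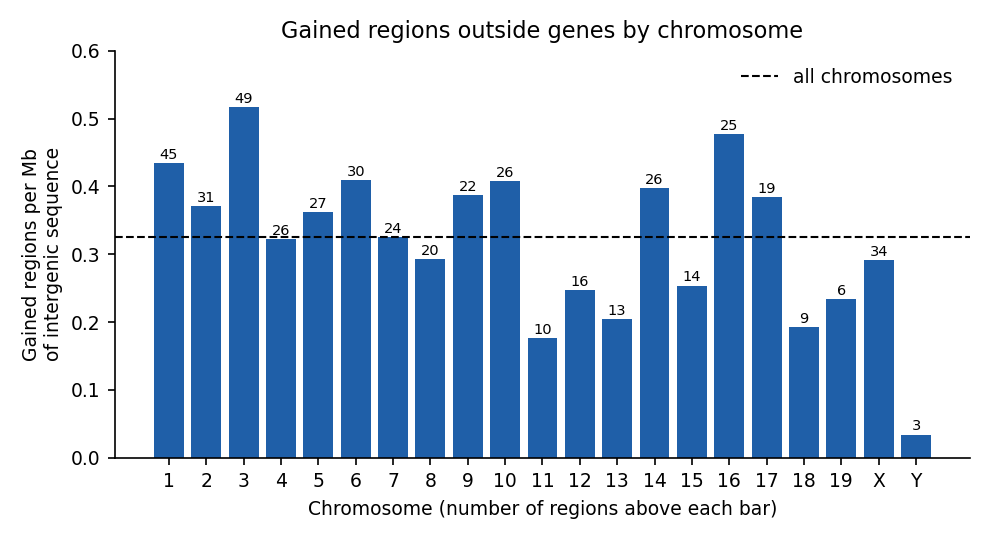
Gained regions outside genes per Mb of sequence between genes on each chromosome (bars, with the number of regions above each) and over all chromosomes (dashed line, 0.326 per Mb). Chromosome 3 is highest at 0.517 and Y lowest at 0.0343 per Mb.

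The regions were narrow. The median width was 332 bp in a range of 5 to 3525 bp (quartiles 230 and 557 bp), and they covered 228.8 kb in all. The median was 444 bp for gained regions inside genes and 441 bp for lost regions outside genes. Narrow regions, up to the 355 bp that is the median of all gained regions in whole bp, made up 263 of the 475 outside genes (55.4%) and 104 of the 259 inside genes (40.2%). The difference was 15.2 points (95% interval 7.66 to 22.5; odds ratio 1.85; p = 1.09e-04 by a two-sided Fisher's exact test), in a single comparison chosen after seeing the data.

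None of 6 comparisons of position between narrow and wider regions passed the adjusted threshold of 0.05. The median width was 240 bp in the 263 narrow regions and 597 bp in the 212 wider ones. Their median distances to any gene were 29849 and 30510 bp. To a protein-coding gene the medians were 124710 and 87520 bp. In deserts lay 57.4% of narrow and 51.4% of wider regions, a difference of 6.00 points (-2.98 to 14.9; p = 0.196 by the exact test, adjusted p = 0.392). Over 100 kb from any gene lay 18.6% and 17.5%, a difference of 1.18 points (-5.91 to 8.03; exact test, adjusted p = 0.920). Within 10 kb of a gene lay 17.5% of narrow and 25.9% of wider regions, a difference of -8.45 points (-16.0 to -1.03; odds ratio 0.605; p = 0.0318 by the exact test, adjusted p = 0.191). With limits of 5 kb and 20 kb that difference was -0.857 and 2.28 points, so it belongs to the 10 kb limit. Another gained region within 10 kb was found for 9.51% of narrow and 5.19% of wider regions, a difference of 4.32 points (-0.564 to 9.05; p = 0.0834 by the exact test, adjusted p = 0.250). With rows within 50 bp joined and regions under 100 bp left out, that difference was 0.556 points (7 of 242 against 5 of 214, exact test, adjusted p = 0.920). The share on X (6.84% and 7.55%) and the share with a protein-coding nearest gene (30.4% and 29.7%) each had an adjusted p of 0.920 by the exact test.

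**Figure D5:**
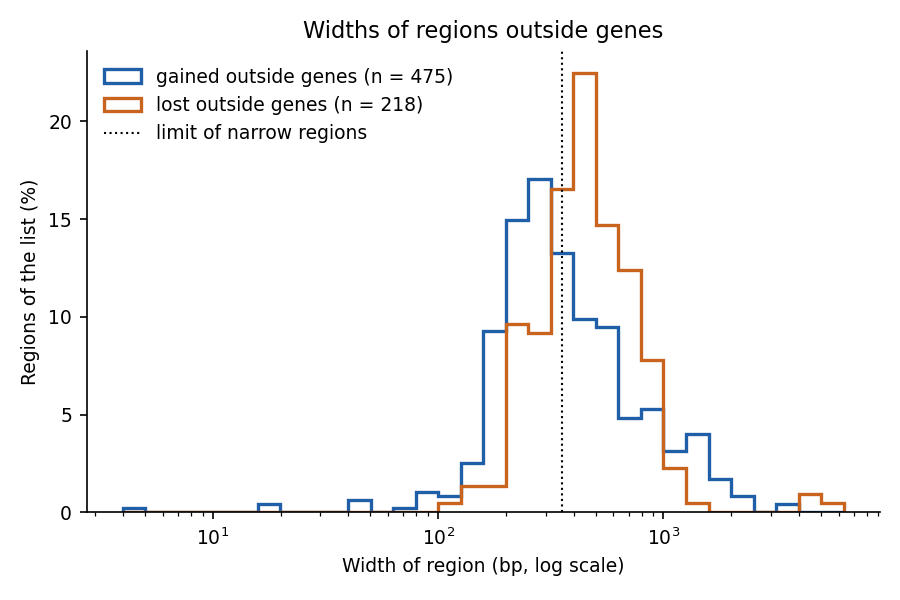
Percent of gained regions outside genes (n = 475) and of lost regions outside genes (n = 218) by width (log axis, bp), with the 355 bp limit between narrow and wider regions as a dotted line. The gained regions have a median of 332 bp and the lost regions one of 441 bp.

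The widest regions differ in kind of location. The widest, chrX:91840914-91844438, spans 3525 bp and lies 10934 bp from a pseudogene and 59700 bp from Mageb5, a gene of the melanoma antigen family expressed in the testis. The next, chrY:90810135-90813309, spans 3175 bp and lies 4876 bp from the long non-coding RNA gene Gm33272 near the end of the annotated Y chromosome. On chromosome 13 a region of 2369 bp, chr13:29070602-29072970, lies 118087 bp from Sox4, a transcription factor gene of development, in the gap to Cdkal1. The region at H3c15 is the fourth in width. The fifth, chr16:46642355-46644470, spans 2116 bp in the desert beside Nectin3, at 144877 bp. Of the 48 regions over 1000 bp, 24 (50.0%) lay in deserts and 9 lay over 100 kb from any gene. At the other end, 12 regions (2.53%) were under 100 bp, the narrowest after the 5 bp one being chr7:70624500-70624518 and chr13:66000436-66000454 with 19 bp each.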

How the data were processed

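ATAC-seq was made in 4 control and 4 cycloheximide libraries. The values the authors deposited are region positions in base pairs, in 2 lists, with no score, count or value per library. The submitters' processing notes name Bowtie2 2.2.4, SAMtools and the builds mm10, mm9 and GRCm38, without saying which step used which. The peak caller, threshold, pooling of replicates and depth are not given in the sources used here. Regions on X and Y ended past the ends of these chromosomes in mm9 and before the last gene in GRCm38 (on Y, 90813309 against 90843932), so positions were read as GRCm38 (mm10) and are given 1-based.

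Centres were set against 49943 RefSeq genes of GRCm38.p6 (21887 protein-coding) on 21 chromosomes. Scripts ran under pandas 2.3.3, scipy 1.17.1, numpy 2.4.6 and matplotlib 3.10.9 in Python 3.11.15. Shares carry Wilson 95% intervals and differences Newcombe intervals. Fisher's exact tests were two-sided, with Benjamini-Hochberg adjustment over 5 comparisons of gained with lost and 6 of narrow with wider regions, at a threshold of 0.05. The test code was tested on simulated data. Regions named were the 5 widest, the 5 farthest from any gene and from protein-coding genes, the 5 nearest on each side of the rule's limit, the 3 narrowest, the densest 100 kb, and up to 5 nearest to each gene family, from which the text takes some. Members of deserts with 3 or more regions were named too. The details of 1 such desert and of 1 listed gene are not reported here. Members, gene lists, tests and alternatives were chosen with earlier results of these data known. No sequence of the regions was used here beyond the promoter windows that overlap them.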

Additional observations from a re-analysis of the deposited data

How the results depend on the processing

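The lists give no depth, signal or error per region, which limits every comparison to counts of regions. No paired analysis was possible because the lists hold no values per library; leaving out a replicate was not possible either. Of 12 tested results recomputed 40 times, 31 values kept their direction and side of the threshold. For 4 values the adjusted p no longer passed the threshold, for 1 it came to pass it, and 4 values changed direction. The causes were not tested. Joining rows within 50 bp and leaving out those under 100 bp (other than for the median distance and the gained against lost shares in deserts and beyond 100 kb), single sorted runs for chromosome X, wide regions, neighbours and the narrow share outside against inside genes, and 1 region per gap were chosen after seeing the data.

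There were 115 members in the first sorted run alone. The median distance was 113335 bp to protein-coding genes. The desert share was 39.6% for gaps of 1000 kb or more and 11.8% for genes of all kinds. In the first run, by Fisher's exact test, the gained minus lost differences were 18.1 points for deserts (adjusted p = 0.0555; 7.88e-04 in both runs together), 9.70 beyond 100 kb (adjusted p = 0.189), 0.686 on X (adjusted p = 1.00), -2.29 for widths over 1000 bp and 0.635 for neighbours. Beyond 200 kb the difference was 2.05 points (exact test, adjusted p = 0.412). With rows joined and those under 100 bp left out, the neighbour difference was -5.17 points (12 of 456 against 17 of 218, exact test, adjusted p = 0.00459). The narrow minus wider difference was 2.28 points within 20 kb of a gene, and -0.154 points for a protein-coding nearest gene with rows joined and those under 100 bp left out. Of the families' 50 recomputed counts 22 moved, and members flanked by any family or list other than predicted genes were 74, 141 by protein-coding flanks and 29 with both flanks in the family. The planned comparisons of sequence content and motifs within the regions were not run, for want of a genome.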

Other observations

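Small RNA genes lay near some regions. No region contained one of the 1005 microRNA hairpins or a tRNA gene of the reference tables. The rule leaves out regions centred in a gene, small RNA genes included, so this absence is in large part set by it. MicroRNA genes flanked 8 regions (1.68%, against 1.17% of the sequence between genes) and 5 lost regions. A pair of regions, chr7:79535724-79536060 and chr7:79536066-79536546, lay 1489 and 1903 bp from Mir9-3hg, the host gene of a microRNA abundant in neural cells. The region chr16:77643928-77644744 lay 1937 bp from Mir125b-2. tRNA genes flanked 4 regions (0.842%, against 0.737% of the sequence).

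Where the strand of the nearest protein-coding gene is in the promoter table, 212 of 382 gained regions outside genes (55.5%, Wilson 95% interval 50.5 to 60.4) lay on the gene's 5′ side, against 85 of 176 lost regions (48.3%, 41.0 to 55.6). Within 10 kb of the gene these were 18 of 28 (64.3%) and 19 of 35 (54.3%). The difference between the lists was not tested.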
